A study of Mus musculus with 12 samples.

Results

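A fraction of the H3K27ac regions of a mouse pancreatic cancer cell line was overlapped by no H3K4me1 and no H3K4me3 region of the same line. These regions were chosen from the deposited region lists of the female KDM6A-WT line, with an overlap of 1 bp as the limit, and are called H3K4-unmarked regions here. There were 2577 of them among 29284 H3K27ac regions, or 8.80%. The other H3K27ac regions carried H3K4me3 alone (2039 regions), H3K4me1 alone (7672 regions) or both marks (16996 regions).

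The series held 12 libraries. Of these, 11 were chromatin immunoprecipitation with sequencing, each with a region list used here, and the other was an input library of the female KDM6A-WT line, which was not analysed here. The groups were KDM6A, MLL4 (antibody given as KMT2D) and H3K4me1 in the female KDM6A-KO line, H3K4me1 in the male KDM6A-KO line, KDM6A, MLL4, H3K4me1, H3K4me3, H3K27ac and H3K27me3 in the female KDM6A-WT line, and H3K4me1 in the male KDM6A-WT line. All lines came from pancreatic tumours, were cultured in F12/DMEM to which EGF was added, without treatment; the labels of the WT lines also give a K6A null tumour as their origin, and no ages. Each group was 1 library of 1 cell line, so nothing below has a replicate check and no difference between lines or classes of regions could be tested. Intervals in brackets are 95% exact binomial ones and cover counting error over regions only.

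Acetylation of lysine 27 on histone H3 is laid down by the coactivators p300 and CBP and marks promoters and enhancers in use. Active enhancers usually carry it together with H3K4me1, which is placed by MLL3 and MLL4, and active promoters together with H3K4me3. KDM6A removes methyl groups from H3K27 and is a subunit of the MLL3 and MLL4 complexes. An acetylated region on neither H3K4 list therefore falls outside both usual classes. Being off a list means that no region passed the caller's threshold there, and signal below that threshold cannot be seen in these files.

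H3K4-unmarked regions were short and weakly acetylated. Their median length was 2000 bp, against 2200 bp with H3K4me3 alone, 2600 bp with H3K4me1 alone and 3600 bp with both marks. Their median H3K27ac read count was 59, against 94, 79 and 222 in those classes. Per kb, the medians were 29.0 reads in H3K4-unmarked regions, 42.5 with H3K4me3 alone, 31.1 with H3K4me1 alone and 60.5 with both. The regions of H3K4me1 alone were thus close to the H3K4-unmarked ones in density and those with H3K4me3 were denser.

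**Figure D1:**
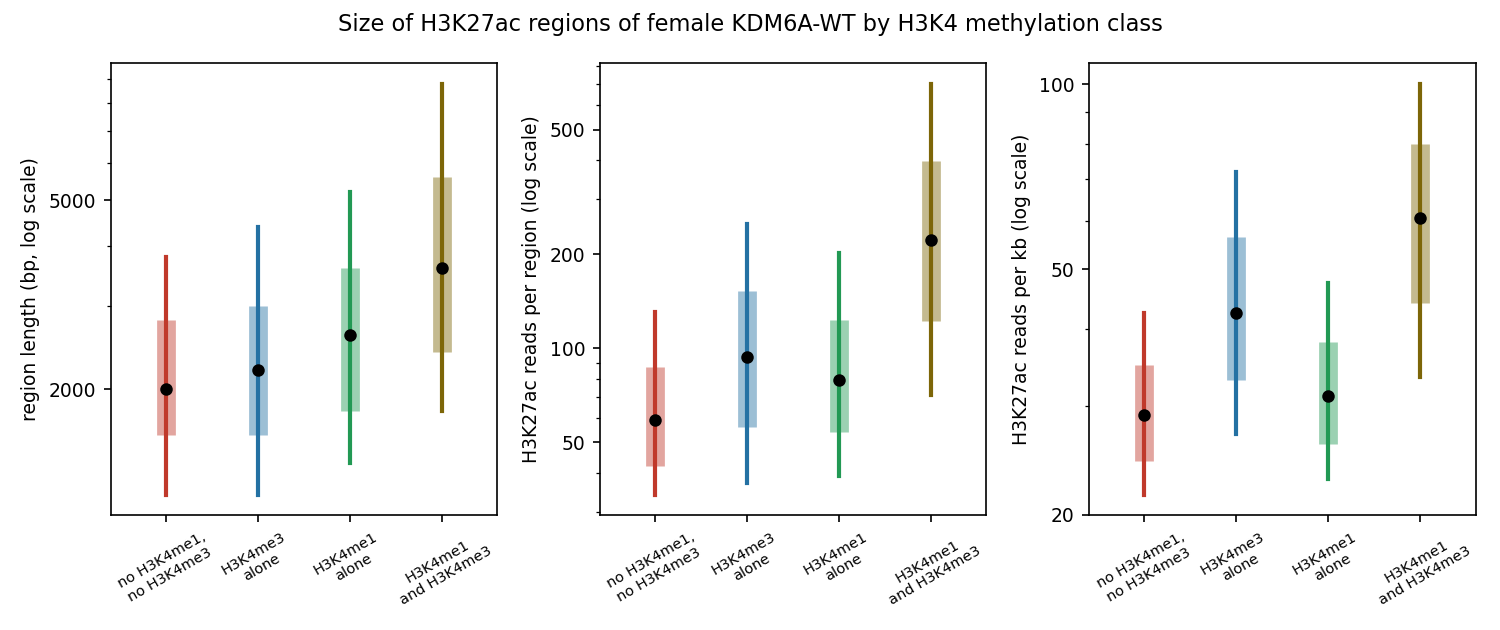
Length in bp, H3K27ac reads per region and H3K27ac reads per kb (log scales) in the 4 classes of H3K27ac regions of female KDM6A-WT; dots are medians, thick bars the 25th to 75th and thin lines the 10th to 90th percentiles. The H3K4-unmarked class has the lowest median in each panel, 2000 bp, 59 reads and 29.0 reads per kb.

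Most of them lay at the weak end of the H3K27ac list. With the list split by reads into 4 classes of about equal number, the weakest class, 18 to 71 reads per region, held 63.7% of the H3K4-unmarked regions, and the strongest held 1.44%. Stated the other way, 22.0% of the weakest class and 0.506% of the strongest were H3K4-unmarked. In all they took up 6.08 Mb, or 5.25% of the acetylated sequence, and 2.72% of the H3K27ac reads in regions. A few were long: 6 exceeded 10 kb and the longest measured 14800 bp.

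Most H3K4-unmarked regions stood well clear of listed H3K4 methylation rather than at its edge. The gap to the nearest H3K4me1 or H3K4me3 region had a median of 8800 bp, with 3400 bp at the 25th and 26400 bp at the 75th percentile. For H3K4me1 taken by itself the median gap was 11400 bp and for H3K4me3 18600 bp. The nearer mark was H3K4me1 for 1658 regions and H3K4me3 for 821, and 98 were equally far from both. Few regions, 192 (7.45%), came within 1 kb of either mark, 16 of them abutting it, while 224 (8.69%) lay more than 100 kb away. H3K4me1 flanked 155 regions within 5 kb on both sides. These gaps describe the rule and carry no test, since the same lists chose the regions.

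Close to the limit of the rule, the 39 regions with a gap of at most 200 bp had a median of 2200 bp and 60 H3K27ac reads. The 14 regions left out by the smallest overlap, 200 bp, had a median of 2000 bp and 48.5 reads. Region borders lie on steps of 200 bp, so no overlap could be smaller.

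The surroundings of H3K4-unmarked regions also held listed H3K4me1. The values for female WT are set in part by the rule, since no H3K4me1 region of that line can reach across an H3K4-unmarked region into its flanks, while those of the other lines can. Within 5 kb on each side, the region itself left out, female KO covered 15.6% of the sequence, male KO 19.8%, male WT 19.9% and female WT 7.09%. Within 100 kb the 4 lists covered 13.5%, 16.3%, 18.8% and 14.0%. In all, the female KO list covers 153.5 Mb and the female WT list 228.7 Mb. H3K4me1-alone regions had 24.9% of their 5 kb surroundings covered in female KO and 44.2% in female WT.

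H3K4me1 was listed at most of these regions in another line. Of the 2577 regions, 2263 (87.8% [86.5 to 89.1]) were overlapped by at least 1 of the 3 H3K4me1 lists that the rule did not use, where the background over all H3K27ac regions was 97.9%. Female KO listed H3K4me1 at 1078 regions, or 41.8% [39.9 to 43.8], with a background of 75.7%. Male KO listed it at 1764, or 68.5% [66.6 to 70.2], with a background of 88.6%. Male WT listed it at 1596, or 61.9% [60.0 to 63.8], with a background of 89.1%. All 3 shares lay below their background. That background holds the 24668 regions with H3K4me1 of female WT, which the rule removed. The order may thus be set in part by the rule, which was not tested. Regions with H3K4me3 alone, which also lack H3K4me1 of female WT, gave 60.4% in female KO, 86.9% in male KO and 58.0% in male WT. All 3 lists were present at 652 regions (25.3%, background 67.3%) and none at 314 (12.2%).

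**Figure D2:**
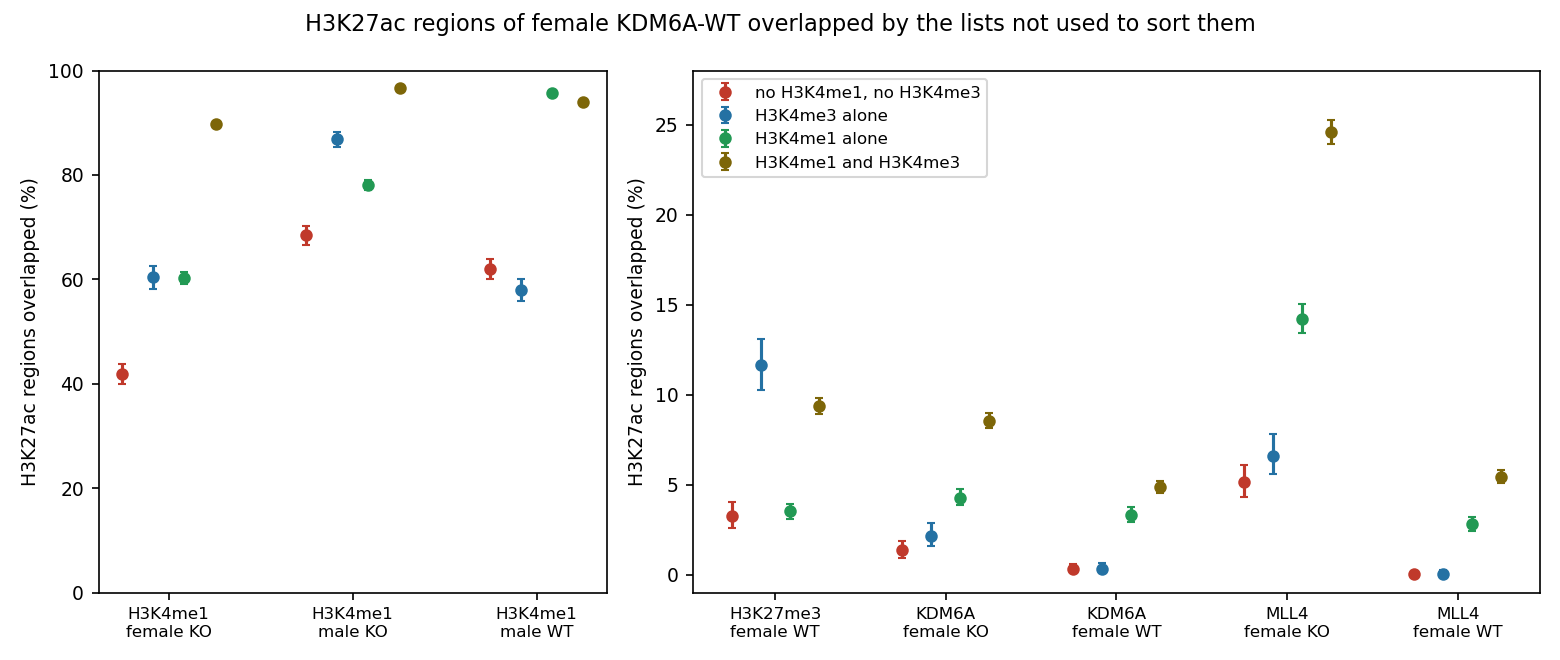
Share of H3K27ac regions of female KDM6A-WT overlapped by each list that was not used to sort them, for the 4 classes, with 95% exact binomial intervals; the left panel holds H3K4me1 of the other lines and the right panel, on a shorter axis, H3K27me3, KDM6A and MLL4. H3K4-unmarked regions lie at 41.8%, 68.5% and 61.9% for H3K4me1 of female KO, male KO and male WT, and at 0.0388% for MLL4 of female WT.

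The H3K4me1 found at them in other lines was of ordinary size for its list. The 1085 female KO regions that touched H3K4-unmarked ones had a median of 117 reads, against 112 over the whole female KO list. For male KO the medians were 129 and 125, and for male WT 128 and 130. Where H3K4me1 was listed it covered the acetylated region wholly in 59.0% of cases in female KO, 57.7% in male KO and 55.1% in male WT. Regions with H3K4me1 alone gave 58.6%, 59.5% and 74.4% in those lines. H3K4me1 listed at H3K4me1-alone regions had more reads per region, with medians of 156 in female KO, 188 in male KO and 299 in male WT. It was also longer, with medians of 4000, 3800 and 5000 bp in those lists. At H3K4-unmarked regions the median lengths were 3200, 3000 and 2800 bp. The part of length in the read counts was not tested.

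**Figure D3:**
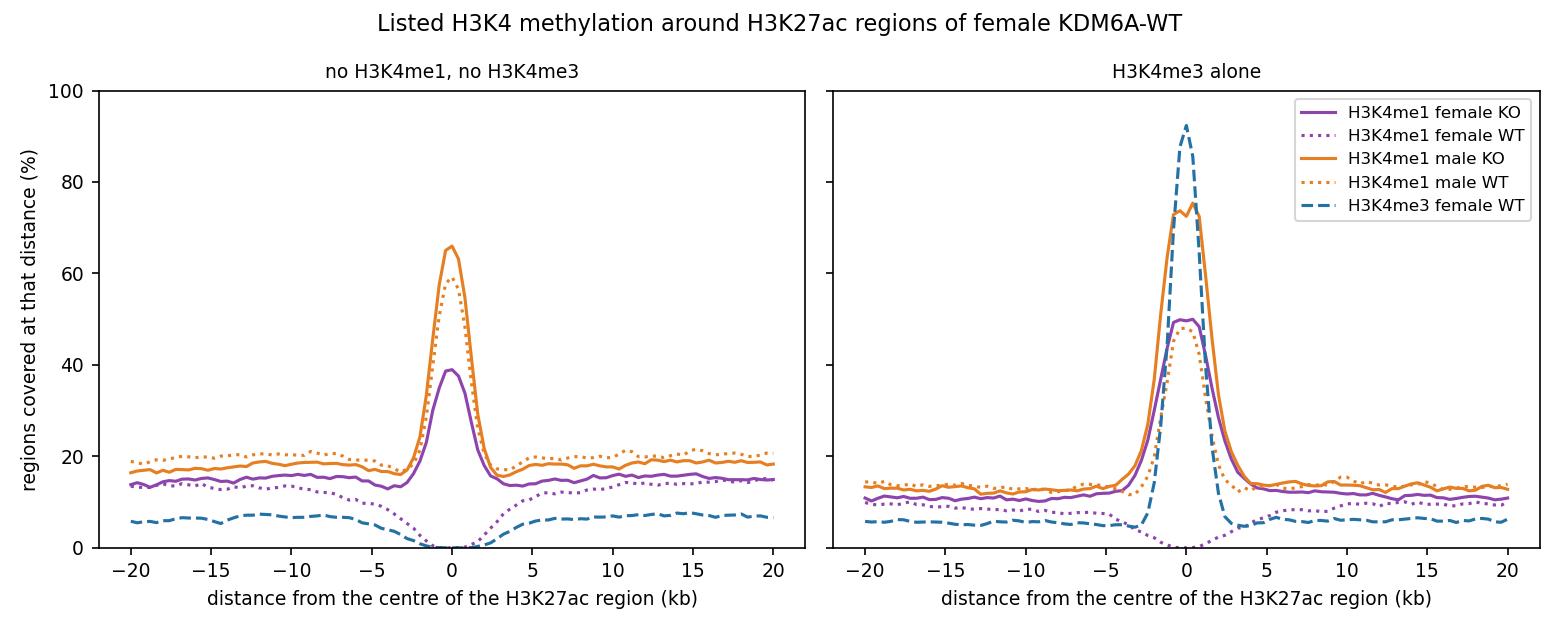
Share of H3K27ac regions covered by listed H3K4me1 of 4 lines and H3K4me3 of female WT (vertical axis, %) by distance from the centre of the H3K27ac region in kb, for H3K4-unmarked regions (left) and regions with H3K4me3 alone (right). At 0.4 kb left of the centre of H3K4-unmarked regions, female KO covers 38.6%, male KO 65.0%, male WT 57.8% and female WT 0% by the rule.

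Where female KO listed H3K4me1 at these regions, 85.8% (925 of 1078) lay on a KO region with no female WT counterpart anywhere along its length. The rule had already removed WT regions from the acetylated stretch itself, and regions with H3K4me3 alone, which lack H3K4me1 of female WT as well, gave 91.5% (1126 of 1231). Of the 2577 H3K4-unmarked regions, 35.9% lay on such a female KO region, while the remaining 153 with H3K4me1 in KO lay on regions that reached a WT region further along. Seen from the other list, 928 of the 8213 female KO regions without a WT counterpart (11.3% [10.6 to 12.0]) overlapped an H3K4-unmarked region, and 2926 (35.6%) overlapped H3K27ac of any class. Of the 1078 regions with H3K4me1 in female KO, 94.1% [92.5 to 95.4] also had it in a male line. Of the 1499 without it in female KO, 79.1% [76.9 to 81.1] had it in a male line. In all, 2199 regions had it in at least 1 male line.

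In the male lines, H3K4me1 was listed at more H3K4-unmarked regions in KO than in WT. It was in KO and not in WT at 603 regions, 23.4% [21.8 to 25.1], and in WT and not in KO at 435, 16.9% [15.5 to 18.4]. Over all H3K27ac regions the shares were 88.6% in male KO and 89.1% in male WT. The rule used neither male list, but it removed regions with H3K4me1 of female WT. How far that removal shaped the difference between the male lists was not tested. The male KO list is the shorter of the pair, with 49780 regions against 64247 in male WT. Male KO was also above male WT in regions with H3K4me3 alone, at 86.9% and 58.0%, and in those with both marks, at 96.6% and 94.0%. In regions with H3K4me1 alone it was below, at 78.1% in male KO and 95.8% in male WT. With 1 library per line, a difference between genotypes and one between these 2 cell lines cannot be told apart.

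The share with H3K4me1 in at least 1 other line was higher for stronger regions and varied little with distance. Taken singly, female KO and male KO changed with distance in opposite directions. Over 4 classes of about equal number, from the weakest to the strongest H3K4-unmarked regions by reads, 84.1%, 84.6%, 90.1% and 92.6% had H3K4me1 in at least 1 other line. For female KO the 4 classes gave 35.8%, 39.9%, 42.7% and 49.2%. Regions with a gap of up to 1 kb without abutting had H3K4me1 in at least 1 other line in 89.8% of 176 cases, and those more than 100 kb away in 86.2% of 224. In female KO the share was 51.7% up to 1 kb and 32.6% beyond 100 kb, and in male WT it was 64.8% and 57.6%. In male KO it was higher beyond 100 kb, at 75%, than up to 1 kb, at 62.5%. For female KO, H3K4-unmarked regions had the lowest share of the 4 classes with and without weighting by reads. Unweighted, the share was 41.8%, against 60.4% with H3K4me3 alone, 60.3% with H3K4me1 alone and 89.7% with both. Weighted to the reads of H3K4-unmarked regions, it was 53.6% with H3K4me3 alone, 57.1% with H3K4me1 alone and 77.2% with both.

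**Figure D4:**
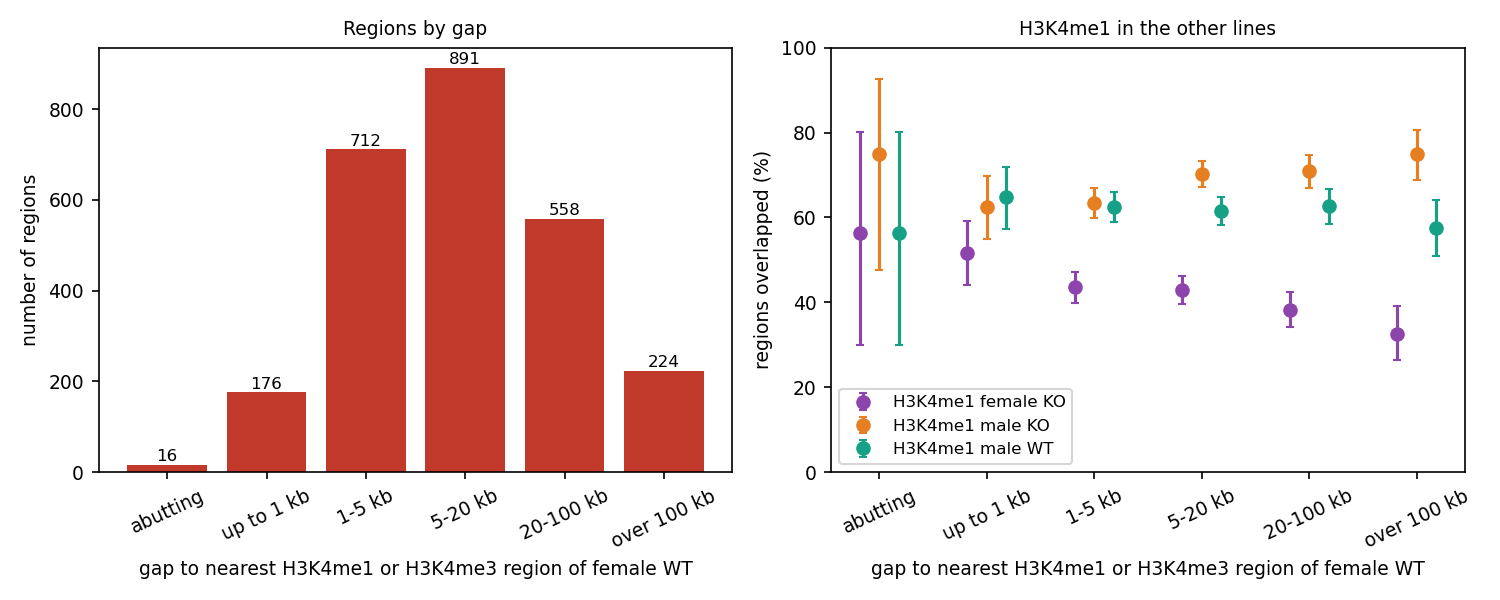
Number of H3K4-unmarked regions (left) and their share overlapped by H3K4me1 of the other lines in %, with 95% exact binomial intervals (right), by gap to the nearest H3K4me1 or H3K4me3 region of female KDM6A-WT. The class of 5 to 20 kb is the largest, with 891 regions, and the share in female KO goes from 51.7% up to 1 kb to 32.6% beyond 100 kb.

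The strongest regions show both situations. On chromosome 6, 34183601 to 34192800 in mm9, 583 H3K27ac reads lay over 9200 bp, 49.0 kb from the nearest H3K4 mark of the line. H3K4me1 covered 7000 bp of it in female KO, 5800 bp in male KO and all 9200 bp in male WT. On chromosome 5, 87280801 to 87289800, with 511 reads, H3K4me1 covered 4800 bp in female KO, 7800 bp in male KO and 6800 bp in male WT. Chromosome 17, 40538201 to 40547600, with 493 reads, was 395.0 kb from listed H3K4 methylation in female WT and was overlapped by H3K4me1 in all 3 other lines. On chromosome 4, 121702601 to 121709600, with 439 reads and a gap of 752.6 kb, male KO covered 6800 bp, male WT 5800 bp and female KO none. The longest region, chromosome 15, 98980601 to 98995400, had 779 reads and H3K4me1 over 7000 bp in female KO and 9000 bp in male KO, with none listed in male WT.

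Other strong regions had no H3K4me1 in any line. The region with the most reads was chromosome 2, 98506201 to 98507800, with 1032 reads in 1600 bp. It resembles a known site of spuriously high read counts in the mouse genome; no list of such sites was used here, so its reads may not measure acetylation, which was not tested. At 645 reads per kb it was the densest of all 29284 H3K27ac regions, and it overlapped none of the 8 lists outside the rule and lay 885.4 kb from the nearest H3K4me1 of female WT. Apart from it, the region with the most reads among those on none of the 8 lists was chromosome 3, 105965601 to 105976000, with 408 reads. It was followed by chromosome 7, 19117001 to 19122400, where 303 reads were counted. As a group, the 314 regions without H3K4me1 in any line had a median of 51 reads, against 66 in the 652 with H3K4me1 in all 3 other lines.

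Most H3K4-unmarked regions, 1656 of 2577, stood alone along the H3K27ac list, and the others came in rows. Of the 2577 regions, 921 (35.7% [33.9 to 37.6]) had another H3K4-unmarked region as a direct neighbour in that list, and 167 lay between a pair of them. Among regions with H3K4me3 alone, 27.7% were next to an H3K4-unmarked region, among those with H3K4me1 alone 13.7%, and among those with both marks 12.9%. There were 14 unbroken rows of 5 or more, with 88 regions in all. The row of most members, 10 regions, spanned chromosome 7, 19097401 to 19393400. Its 4 leftmost regions had no H3K4me1 in any other line, and the other 6 had it in at least 1.

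Other rows differed in which lines listed H3K4me1. On chromosome 9, 18440201 to 18544400, 8 regions in 104.2 kb had it in 8 cases in female KO, 8 in male KO and 7 in male WT. On chromosome 17, 7730001 to 7839800, 7 regions in 109.8 kb had it in male KO in every case and in no other line. On chromosome 14, 28673201 to 30442200, 8 regions had it in 1 case in female KO, 8 in male KO and 6 in male WT. On chromosome 3, 105842001 to 106191600, 7 regions with 1606 H3K27ac reads between them had it in 5 cases in male KO, 2 in male WT and none in female KO. The lines with H3K4me1 thus differed from row to row.

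By chromosome, the H3K4-unmarked share of H3K27ac regions ran from 4.22% [2.95 to 5.82] on chromosome 19 to 13.0% [10.5 to 15.8] on X, with a median of 8.40%. Chromosome 1 followed X, at 12.5% [11.2 to 13.9], and held 289 of the regions. On X the share with H3K4me1 in at least 1 other line was 87.2%, against 87.8% on the autosomes.

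**Figure D5:**
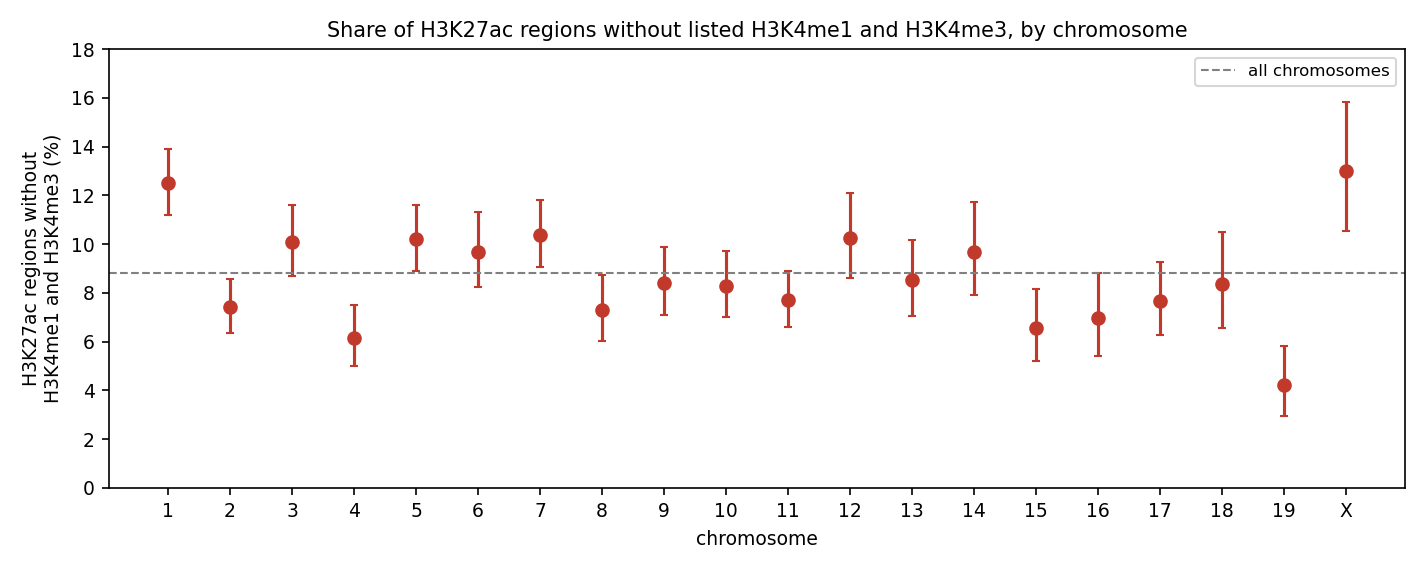
Share of H3K27ac regions that were H3K4-unmarked, in %, by chromosome, with 95% exact binomial intervals; the dashed line is the share over all chromosomes, 8.80%. X and chromosome 1 are highest, at 13.0% and 12.5%, and chromosome 19 is lowest, at 4.22%.

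The repressive mark H3K27me3 was listed at few of these regions. It overlapped 84, or 3.26% [2.61 to 4.02], with a background of 7.44%, close to the 3.52% [3.12 to 3.96] of regions with H3K4me1 alone. Regions with H3K4me3 alone gave 11.6% and those with both marks 9.35%. Among H3K4-unmarked regions with H3K27me3, 39 lay wholly inside it and 71 (84.5%) had H3K4me1 in another line. That share was close to the 87.9% of H3K4-unmarked regions without H3K27me3. The strongest, chromosome 1, 85241001 to 85252800, had 995 H3K27ac reads, lay wholly inside H3K27me3, and had H3K4me1 over 11200 bp in female KO and none in either male line. A second on that chromosome, 87479001 to 87483000, with 284 reads, had the same pattern.

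MLL4, the H3K4me1 methyltransferase, was listed in female WT at 1 of the 2577 regions, 0.0388% [0.000982 to 0.216], with a background of 3.91%. That region was chromosome 12, 81382801 to 81385600, with 54 H3K27ac reads and H3K4me1 in female KO. Regions with H3K4me3 alone also had 1 overlap, among 2039. Over both classes without H3K4me1 of female WT the count was 2 of 4616, against 1142 of 24668 regions with H3K4me1 (4.63%). The difference remained when the shares were weighted by classes of reads. Weighted to the reads of H3K4-unmarked regions, H3K4me1-alone regions still gave 2.40%. The class of most reads had no upper limit, so read counts were not matched within it. At 60 to 87 reads, H3K4me1-alone regions gave 2.93% and H3K4-unmarked regions 0%.

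In the female KO line MLL4 was listed at 133 of the regions, 5.16% [4.34 to 6.09], with a background of 18.9%. It was more frequent where the KO line also had H3K4me1, at 8.26% [6.68 to 10.1] of 1078 regions, against 2.94% [2.14 to 3.92] of the 1499 without. The other classes showed the same order. With and without H3K4me1 of KO, MLL4 of KO was at 9.91% and 1.61% in regions with H3K4me3 alone. The shares were 20.6% and 4.53% with H3K4me1 alone and 26.9% and 4.39% with both marks. H3K4-unmarked regions also had MLL4 of KO more often on chromosomes 1, 6 and 17, at 14.9% [12.0 to 18.2] of 530 regions, against 2.64% [1.99 to 3.43] of the 2047 on other chromosomes. The other classes also had MLL4 of KO more often on 1, 6 and 17 than elsewhere. The shares were 18.6% and 4.24% with H3K4me3 alone, 26.5% and 11.5% with H3K4me1 alone, and 49.8% and 19.6% with both marks. Within each set of chromosomes, H3K4-unmarked regions kept the order by H3K4me1 of KO. The shares with and without it were 21.4% and 9.97% on 1, 6 and 17 and 4.71% and 1.17% elsewhere. MLL4 of KO overlapped 12.0% [9.57 to 14.7] of the 652 regions with H3K4me1 in all 3 other lines and 2.23% [0.901 to 4.54] of the 314 with none. With H3K4me1 in 1 or 2 of those lines the shares were 2.97% and 2.99%, close to the share with none. Regions with MLL4 of KO were longer than those without it (median 2800 bp, against 2000 bp), and the part of length in these differences was not tested. MLL4 lists of different length are not levels: the KO list holds 13152 regions and the WT list 2130.

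KDM6A was rarely listed at H3K4-unmarked regions in either line. In KO, taken as the background of the antibody, it overlapped 35 of them, 1.36% [0.948 to 1.88], with a background of 6.36%. In WT it overlapped 8, 0.310% [0.134 to 0.611], with a background of 3.73%. The KDM6A lists differ in length, with 5961 regions in KO and 2847 in WT, so these shares are not levels either. Both lists shared 2 regions. Of the 35 from KO, 26 lay on chromosomes 1, 6 and 17, which held 530 of all 2577 H3K4-unmarked regions. The other classes also had KDM6A of KO more often there than elsewhere. The shares were 7.37% and 1.12% with H3K4me3 alone, 11.7% and 2.63% with H3K4me1 alone, and 24.2% and 5.48% with both marks. Of the 8 from WT, 4 lay on chromosomes 15 or 19, which held 77 and 35 of the 2577 regions. Shares of KDM6A of WT on chromosomes 15 and 19 are not given here for the other classes. The 8 regions thus cannot show whether this placement is particular to H3K4-unmarked regions. The strongest in WT was chromosome 15, 5976001 to 5982000, with 163 H3K27ac reads. The second, chromosome 3, 106023801 to 106026600, had 110 reads, lay in the row on chromosome 3 described above and was also overlapped by MLL4 of KO. Regions with H3K4me3 alone had KDM6A of WT in 0.294% of cases and those with H3K4me1 alone in 3.32%. In KO, the background of the antibody, these classes gave 2.16% and 4.29%, in the same order and above the WT values.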

How the data were processed

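Per the submitters' processing notes, the tools were Bowtie 1.1.2 and SICER 1, with mm9 as the build and no roles stated. The authors deposited 1 list per library with a position and a whole number per region, read here as a count of reads per region because of its values and layout, no header being present. Those counts ranked regions within a list only. An input library of the female KDM6A-WT line is among the samples and was not analysed here; whether and for which lists it served as a control, the thresholds and the total depth are not given in the sources used here. Reads in regions numbered 7165222 for H3K27ac and 108165 (MLL4 of WT) to 17526099 (H3K4me3) over the lists, and PCR copies may be among them. The smallest gap between neighbours was 600 bp for H3K27ac, 800 bp for H3K27me3 and 400 bp for the others.

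Regions count as overlapped from 1 bp. Positions count from 1, in mm9. No genome or annotation of that build was used, so no gene or sequence is given. Shares carry Clopper-Pearson intervals, and weighted shares give each of 4 classes of reads its weight among the H3K4-unmarked regions. Python 3.11.15, numpy 2.4.6, pandas 2.3.3, scipy 1.17.1 and matplotlib 3.10.9 were used. Overlaps and gaps were checked against bedtools 2.31.1 and tested on simulated data.

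The regions, comparisons and alternatives were chosen with earlier results of these data known. Named regions are leading ones by reads, length or gap, in all or among those overlapped by a given list or by none, without chromosome 18. Rows of neighbouring regions were chosen after their values were seen. The KO line served as the background of the KDM6A antibody.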

Additional observations from a re-analysis of the deposited data

How the results depend on the processing

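Each of 8 results was recomputed under 7 alternatives, and 3 of them also without chromosomes 1, 6 and 17, an alternative chosen after seeing the data. Of 59 values, 35 stayed within the interval of the main value, or within 1.5 times for the number of regions. Neither autosomes alone nor leaving out chromosomes 15 and 19 moved a result out of it. With at least 50% of a region covered, H3K27me3 was at 1.94%, KDM6A of WT at 0.0842%, MLL4 of KO at 2.16% and MLL4 of WT at 0%, with a median gap of 4400 bp. That setting lets in regions that partly overlap an H3K4 mark, so the gap falls by construction. Extending the H3K4 lists by 1 kb gave a gap of 9700 bp, which rises by construction because regions closer than 1 kb are dropped. In the upper 50% of H3K27ac by reads 237 H3K4-unmarked regions were left, with H3K4me1 in another line at 94.1% and in female KO at 55.3%, H3K27me3 at 2.11%, MLL4 of KO at 10.5% and of WT at 0%, and a gap of 10600 bp. With the upper 50% of every other list there were 6551 H3K4-unmarked regions, with a gap of 14400 bp. H3K4me1 was at 68.0% in another line and at 28.5% in female KO. H3K27me3 was at 4.34%, KDM6A of WT at 0.0916% and MLL4 of KO at 3.63%. Shorter lists lower the overlap of a given region by construction, but the set of regions also changed. H3K27me3 rose from its main value of 3.26%, and the part of each was not tested. Joining H3K27ac regions within 5 kb gave 6.09% for MLL4 of KO, 0% for MLL4 of WT and 15200 bp. Without chromosomes 1, 6 and 17, MLL4 of KO was at 2.64%. Where no construction is named, the cause was not tested. No paired analysis was possible because each group held 1 library and no result came from a test. Weak regions limit the reading: 63.7% of the H3K4-unmarked ones had 71 or fewer reads.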

Other observations

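The X chromosome held 86 of the 661 H3K27ac regions on X as H3K4-unmarked and 229 with H3K4me3 alone, and H3K4me1 of female WT was listed at the remaining 110 and 236 regions with H3K4me1 alone or both marks. The regions with H3K4me3 alone on X had H3K4me1 in 32.8% [26.7 to 39.2] of cases in female KO, 77.3% [71.3 to 82.6] in male KO and 38.9% [32.5 to 45.5] in male WT. On the autosomes the corresponding values were 63.9% [61.6 to 66.1], 88.1% [86.5 to 89.5] and 60.4% [58.1 to 62.7]. For H3K4-unmarked regions the values on X were 37.2% (32 of 86), 72.1% (62 of 86) and 66.3% (57 of 86), and on the autosomes 42.0% [40.0 to 44.0], 68.3% [66.5 to 70.2] and 61.8% [59.8 to 63.7]. Of each whole H3K4me1 list, X took 1.50% of the regions in female KO, 2.38% in male KO, 1.59% in female WT and 2.05% in male WT. These lines are 1 of each kind, so sex, genotype and line cannot be told apart.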
